A study of Mus musculus with 8 samples.

Results

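The cardiotrophin and gp130 cytokine pathway, represented by 10 of the 53507 genes counted, was followed through tdTomato-positive brain cells of the mouse at embryonic and postnatal ages. The 10 genes are the ligands Ctf1, Lif and Cntf, the receptor chains Lifr, Il6st, Osmr and Cntfr, the kinase Jak1, the transcription factor Stat3 and the inhibitor Socs3. The family was chosen by name, and it was selected on a measured value, the level of Ctf1 in P12 hypoxia against P12 normoxia, which was known beforehand. Values of the 10 genes in that comparison, and those of Ctf1 at P12 in any comparison, are therefore given as a description, with no p-value, and nothing is read from their calls. Of the 10 genes, 9 passed the low-count filter and Lif did not.

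The RNA came from brain cells sorted for tdTomato, a red fluorescent protein, and the labels name these cells progenitors. The 4 groups of 2 libraries are embryos at E13 and at E15, both labelled wt, and pups at P12 that were reared in normal air (P12 normoxia) or under chronic low oxygen (P12 hypoxia). That group lived in 10 ± 0.5% O2 from P3 to P11, 8 days, and mothers of the hypoxic and control litters were swapped at P6 and P9. The labels give no strain, no driver of tdTomato and no genotype beyond wt for the embryos, and they do not say whether replicates came from separate animals, so p-values measure only the spread between libraries.

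Cytokines of this family bind a complex of receptor chains that always includes gp130, the product of Il6st. Cardiotrophin 1, LIF and CNTF engage gp130 together with the LIF receptor, CNTF with the additional chain encoded by Cntfr, while oncostatin M can use the chain encoded by Osmr. The bound complex activates JAK kinases, which phosphorylate STAT3. STAT3 then enters the nucleus and induces its own inhibitor Socs3. In the developing cortex, cardiotrophin 1 made by young neurons is known as a signal that moves progenitors from making neurons to making astrocytes.

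Against the embryonic libraries, Lifr, Il6st, Cntfr, Stat3 and Socs3 rose in both P12 groups, from 1.64 to 8.16 on the log2 scale. Lifr was called in both under all 17 alternative analyses, while Socs3 lost its call under 10 of 17 in each. In normoxia Il6st, Cntfr and Stat3 lost theirs under 3, 3 and 6, and in hypoxia they kept them. Ctf1, whose P12 values chose the family, had 0 counts in normoxia and in hypoxia lay above the embryo by 5.15 on the log2 scale. Lif was near or at 0 throughout, and Cntf reached 1.66 CPM in P12 normoxia replicate 2 and less elsewhere. Osmr appeared at P12 alone and unevenly between replicates, and Jak1 did not pass the threshold.

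Libraries were built from 400 pg of RNA and held 36252027 to 47084796 counts of genes. At least 10 counts were found for 11695 to 12785 genes in hypoxia, 14129 to 16468 in normoxia and 17520 to 18318 in the embryonic libraries. Replicates correlated across genes (log2 of CPM + 1, genes not being independent) with r = 0.98 at E13, 0.99 at E15, 0.82 in normoxia and 0.70 in hypoxia, so the P12 libraries were the least alike. Of the 12 progenitor markers, all 12 reached 1 CPM in each embryonic library and 11 or 12 did at P12. Summed astrocyte genes stood at 66.4 to 94.2 CPM in the embryo and at 17350 to 23370 CPM at P12, oligodendrocyte lineage markers at 12.5 to 38.0 CPM and 561 to 3339 CPM, and neuron markers at 2728 to 3160 CPM and 359 to 1033 CPM. The label of progenitor cells thus covers P12 libraries with high astrocyte gene levels. Summed markers of microglia and macrophages were 28.3 CPM in P12 normoxia replicate 2 and at most 3.05 CPM elsewhere. In bulk libraries such as these, fewer cells of a type and less RNA per cell cannot be told apart.

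The promoter windows of Ctf1 and Socs3 are shown because Ctf1 is the gene on which the family was selected and Socs3 is the feedback target of STAT3. RefSeq promoter windows (GRCm38.p6, 250 bases before to 50 after each start) were found for 10 of 10 genes, 16 windows in all. They were searched on both strands for the STAT motif TTCNNNGAA and for the hypoxia response core, ACGTG or GCGTG. Both stretches run 5′ to 3′ on the strand of the gene, and capitals mark the match. The Ctf1 stretch is chr7:127712453-127712702 on the plus strand, the 250 bases before the start, with its match beginning at base -39 in the hypoxia core read on the other strand. The Socs3 stretch is chr11:117969502-117969530 on the minus strand, with a STAT match beginning at base -154 from the RefSeq start. In GENCODE M21 the gene spans 117966079 to 117970047 and starts further upstream, so the stretch lies inside the gene in that annotation.
Ctf1: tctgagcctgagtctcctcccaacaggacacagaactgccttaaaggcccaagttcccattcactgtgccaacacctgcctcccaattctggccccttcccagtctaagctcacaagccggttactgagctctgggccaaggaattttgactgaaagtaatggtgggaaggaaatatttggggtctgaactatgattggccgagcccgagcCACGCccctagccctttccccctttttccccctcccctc
Socs3: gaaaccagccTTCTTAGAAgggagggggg
The STAT motif was present in 1 of the 16 windows, that of Socs3, and in 8.3% of the 32851 windows of all genes. The hypoxia core was present in 11 of the 16 windows and in at least 1 window of 8 of the 10 genes, all but Il6st and Socs3. It was also present in 43.8% of the windows of all genes and in 46.7% of all genes, so a match in the Ctf1 window is common. A match is a string of letters and was not measured as a site in these cells.

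Ctf1, which encodes cardiotrophin 1, lies on chromosome 7 from 127712736 to 127718192 on the plus strand (GRCm38, GENCODE M21). Levels are given as CPM, counts scaled to a common library size by TMM, per mega-count. Ctf1 stood at 1.65 and 1.73 CPM in the E13 libraries, 0.828 and 1.35 CPM at E15, 0 and 0 in P12 normoxia, and 21.9 and 74.6 CPM in P12 hypoxia. The 2 normoxic libraries were the lowest and the 2 hypoxic libraries the highest, with the embryonic libraries between them and no overlap between these 3 sets. In counts these were 92, 97, 47 and 84 in the embryo, 0 and 0 in normoxia, and 650 and 2017 in hypoxia.

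Against the mean of E13 and E15, Ctf1 was at least 14.4-fold lower in P12 normoxia (bound at 3 counts per library). It was higher in P12 hypoxia by 5.15 on the log2 scale (SE 0.80), 33.9-fold in summed counts. Set beside normoxia, the mean hypoxic level was at least 499.7-fold higher at that bound, which is the value the family was selected on. These bounds are of group means and leave out the spread between replicates, so single libraries can lie below them. Ctf2, its neighbour on the opposite strand, shares 87 exon bases with Ctf1 and had 0 to 17 counts. The hypoxic replicates differed 3.41-fold for Ctf1, and the higher was replicate 2.

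**Figure D1:**
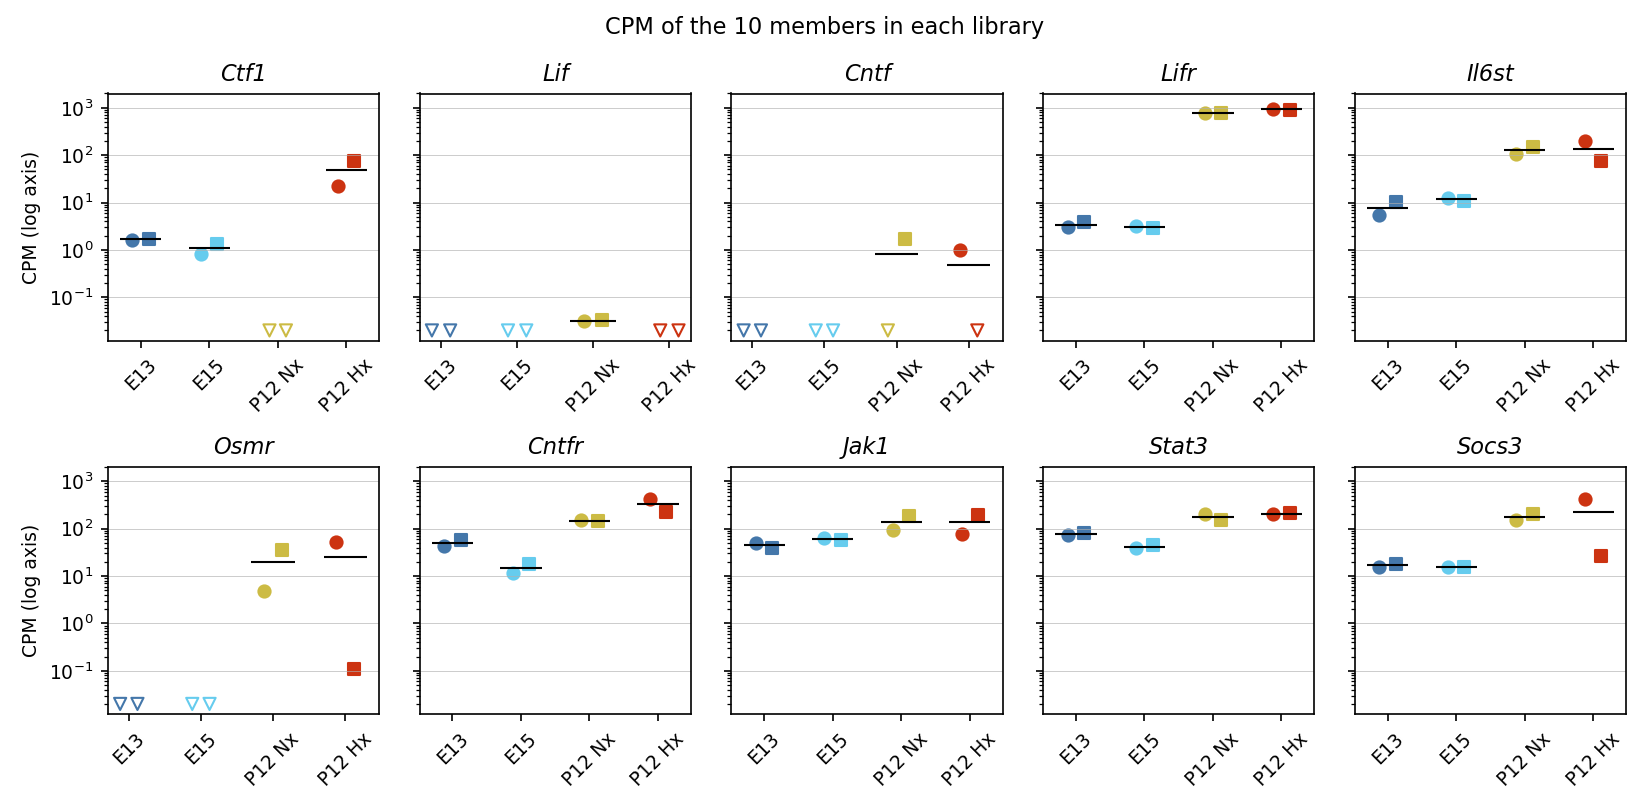
CPM of each of the 10 genes in each library (log axis), by group, with replicate 1 as a circle, replicate 2 as a square and the group mean as a line. Open triangles at the bottom mark libraries with 0 counts. Lifr lies at 2.96 to 3.88 CPM in the embryonic libraries and at 763 to 965 CPM at P12, while Ctf1 is at 0 in both normoxic libraries.

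Of the other ligand members, Lif was near or at 0 in every library, and Cntf was low, with at most 1.66 CPM. Lif, which encodes leukaemia inhibitory factor, had 1 count in each normoxic library (0.0318 and 0.0326 CPM) and 0 counts in the other 6. Cntf, which encodes ciliary neurotrophic factor, had 51 counts (1.66 CPM) in P12 normoxia replicate 2, 29 counts (0.975 CPM) in P12 hypoxia replicate 1 and 0 in the other 6 libraries. Cntf shares 847 exon bases, 78.9% of its exons, with Zfp91 on the same strand, so its few reads cannot be assigned firmly to it. Zfp91 stood at 109 CPM in the hypoxic library with Cntf reads and at 21.1 CPM in the normoxic one. With one side at 0 or nearly so, Cntf was not called against the embryo in normoxia (edgeR adjusted p = 0.16) or in hypoxia (0.152). It passed the low-count filter through P12 alone and could only rise, so nothing is read from these p-values.

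Of 9 further genes for ligands or ligand subunits, 0 reached 1 CPM in any library. Il6, a cytokine gene that also signals through gp130, had the highest value, 0.857 CPM in P12 normoxia replicate 1. Il11, Clcf1, Ctf2 and Ebi3 each stayed below that, and Osm had 0 counts in all 8; these 6 were picked out by name after their values were seen. Of the 9, 2 passed the filter and 0 were called by edgeR in any of the 4 comparisons (0 at an unadjusted p under 0.05, 0 by DESeq2 and 0 by limma-voom). A library with 0 counts allows a level of up to 3 counts, 0.0482 to 0.111 CPM in these 8.

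Among the receptor chains, Lifr, Il6st and Cntfr rose from the embryo to both P12 groups, and Osmr was not called. Lifr (chromosome 15, 7090614 to 7197489, plus strand) stood at 2.99 and 3.88 CPM at E13, 3.15 and 2.96 at E15, 763 and 768 in normoxia, and 965 and 891 in hypoxia. Every P12 library was far above every embryonic one, and the replicates of each P12 group lay within 1.08-fold of each other. The LIF receptor gene was higher by 7.88 (SE 0.21, edgeR adjusted p = 0.000101) in normoxia and by 8.16 (SE 0.21, 9.11e-05) in hypoxia on the log2 scale. It was called in both comparisons under all 17 alternatives.

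Il6st, which encodes gp130 itself (chromosome 13, 112464070 to 112510086, plus strand), stood at 5.37 and 10.2 CPM at E13, 12.7 and 10.5 at E15, 108 and 145 in normoxia, and 194 and 74.2 in hypoxia. The P12 libraries all lay above the embryonic ones, and the 2 normoxic libraries lay between the 2 hypoxic ones. Il6st was higher by 3.73 in normoxia (SE 0.51, edgeR adjusted p = 0.00711) and by 3.82 in hypoxia (SE 0.51, 0.00513) on the log2 scale. The normoxic call was lost without E13 replicate 1, E15 replicate 1 or E15 replicate 2, with adjusted p of 0.0524 to 0.0609.

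Cntfr encodes the membrane-anchored chain that recognises CNTF (chromosome 4, 41657498 to 41697089, minus strand). It stood at 42.5 and 57.2 CPM at E13, 11.7 and 18.0 at E15, 152 and 143 in normoxia, and 419 and 230 in hypoxia. The groups did not overlap, with E15 lowest, then E13, normoxia and hypoxia. Cntfr was higher than in the embryo by 2.44 in normoxia (SE 0.35, edgeR adjusted p = 0.0083) and by 3.58 in hypoxia (SE 0.36, 0.00194). In normoxia the call was lost without E13 replicate 1, E13 replicate 2 or E15 replicate 1 (adjusted p of 0.0530 to 0.0632).

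Osmr, the oncostatin M receptor chain (chromosome 15, 6813577 to 6874969, minus strand), had 0 counts in all 4 embryonic libraries, 4.89 and 34.9 CPM in normoxia, and 51.1 and 0.111 CPM in hypoxia. The lowest P12 value was 3 counts in P12 hypoxia replicate 2, and the hypoxic replicates differed 460-fold. By group mean, Osmr was at least 383-fold higher than the embryo in normoxia and at least 492-fold higher in hypoxia. The hypoxic bound rests on replicate 1, since replicate 2 held only the 3 counts allowed for a library at 0. With this spread neither difference was called (edgeR adjusted p = 0.0651 and 0.0502). Osmr passed the low-count filter through P12 alone and could only rise. Nothing is therefore read from these p-values or from the calls under the alternatives. In normoxia Osmr was called under 5 alternatives: DESeq2, limma-voom (adjusted p = 0.0074), only the compared groups (0.0226), and without P12 hypoxia replicate 1 (0.0285) or replicate 2 (0.0251). In hypoxia it was called under 4: DESeq2, relative log expression scaling (0.0457), a minimum of 5 CPM in 2 libraries (0.0434), and without P12 hypoxia replicate 2 (0.0226).

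Among 5 further partner receptor genes, 3 were tested, and Il11ra1, Il11ra2 and Il6ra reached 1 CPM in some library. In each P12 group edgeR called 2 higher and 0 lower than the embryo. Over all tested genes the shares were 12.1% and 5.68% in normoxia and 13.2% and 12.9% in hypoxia. Il11ra1, the interleukin 11 receptor chain, stood at 5.06 and 7.97 CPM at E13, 2.70 and 3.20 at E15, 122 and 70.8 in normoxia, and 86.9 and 25.8 in hypoxia. It was higher than the embryo by 4.46 in normoxia (SE 0.63, edgeR adjusted p = 0.00787) and by 3.68 in hypoxia (SE 0.61, 0.0106). Il11ra2, a near-identical copy whose reads may be split with Il11ra1, was called higher in both comparisons at lower levels (19.0 to 34.5 CPM in normoxia, 5.70 to 24.2 in hypoxia), and both genes are uncertain for that reason. Il6ra, the interleukin 6 receptor chain, was at 2.64 CPM in P12 normoxia replicate 2 and at most 0.81 elsewhere. The calls of Il11ra1 and Il11ra2 were each lost without any one of the 4 embryonic libraries.

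Jak1 encodes a kinase bound to gp130 (chromosome 4, 101152367 to 101265282, minus strand). It stood at 49.0 and 39.7 CPM at E13, 65.0 and 58.4 at E15, 93.0 and 182 in normoxia, and 78.6 and 192 in hypoxia. Each P12 library was above each embryonic one, and both P12 groups spread about as widely. The differences of 1.40 in normoxia (SE 0.46, edgeR adjusted p = 0.0903) and 1.37 in hypoxia (SE 0.46, 0.0767) did not pass the threshold. DESeq2 called both, at adjusted p of 0.0419 and 0.012. The normoxic difference was also called with only the compared groups (0.0221) and without P12 hypoxia replicate 1 (0.0388) or replicate 2 (0.028), and the hypoxic one without P12 hypoxia replicate 1 (0.0199).

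Stat3 encodes the transcription factor that relays the gp130 signal (chromosome 11, 100885098 to 100939540, minus strand). It stood at 72.6 and 79.9 CPM at E13, 38.8 and 44.8 at E15, 204 and 149 in normoxia, and 204 and 213 in hypoxia. Every P12 library exceeded every embryonic library, and E15 was below E13. Stat3 was higher by 1.64 in normoxia (SE 0.25, edgeR adjusted p = 0.0106) and by 1.89 in hypoxia (SE 0.25, 0.00505) on the log2 scale. The hypoxic call held under all 17 alternatives. The normoxic call was lost without any one embryonic library (adjusted p of 0.0777 to 0.0908), without P12 normoxia replicate 1 (0.0647) and with library totals without scaling factors (difference 0.79, 0.0751).

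Of 20 other genes for JAKs, STATs and adaptors of the pathway, 19 were tested. In normoxia against the embryo 2 were called higher and 1 lower, where 12.1% and 5.68% of all tested genes were, with a median log2 fold change of 0.24 beside -0.04 over all. In hypoxia against the embryo 3 were called higher and 3 lower, where 13.2% and 12.9% of all were, with a median of -0.70 beside -0.43. These counts are near the shares over all genes. Pik3r1, a regulatory subunit of PI3 kinase, rose in both (2.92 and 2.16), and the kinase Akt1 fell by 1.56 in normoxia and fell by 2.02 in hypoxia. In normoxia Map2k1, which encodes a MAP kinase kinase, rose by 2.08.

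Tyk2, another JAK kinase, stood at 14.0 to 24.2 CPM in the embryo, 19.0 and 7.98 CPM in normoxia, and 0 and 0.0740 CPM in hypoxia, where it was called lower than the embryo (edgeR adjusted p = 0.0132). Between hypoxia and normoxia edgeR called 0 of these 19 (2 at an unadjusted p under 0.05), DESeq2 called 2 lower (Tyk2 and Jak2, the latter named after its values were seen) and limma-voom called 0. Akt1 in normoxia, Map2k1 and Tyk2 lost their calls when any one embryonic library was left out, and Pik3r1 in hypoxia lost its call without E13 replicate 1 or either E15 library.

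Socs3, which encodes the inhibitor that binds gp130 and JAKs (chromosome 11, 117966079 to 117970047, minus strand), stood at 15.8 and 18.3 CPM at E13, 15.5 and 15.6 at E15, 151 and 205 in normoxia, and 415 and 26.3 in hypoxia. All P12 libraries lay above the embryonic ones, but the hypoxic replicates held both the highest and the lowest P12 value and differed 15.7-fold. Socs3 was higher by 3.45 in normoxia (SE 0.90, edgeR adjusted p = 0.0498) and by 3.76 in hypoxia (SE 0.91, 0.0317). Each call was lost under 10 of 17 alternatives, among them any one embryonic library left out (adjusted p of 0.193 to 0.2 in normoxia and 0.132 to 0.137 in hypoxia) and the block for the replicate number (0.0953 and 0.0963). Without P12 hypoxia replicate 1 the hypoxic difference was 0.70 (adjusted p = 0.115). The same library, P12 hypoxia replicate 1, was also the one with Osmr at 51.1 CPM and Cntf at 0.975 CPM.

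Of 16 other inhibitors, 15 were tested, and 1 was called higher and 2 lower in each P12 group against the embryo, where 12.1% and 5.68% of all tested genes were in normoxia and 13.2% and 12.9% in hypoxia. The median log2 fold change was -0.22 in normoxia beside -0.04 over all tested genes, and 0.20 in hypoxia beside -0.43. Pias3, which encodes a protein inhibitor of activated STAT3, stood at 6.80 to 9.71 CPM in the embryo, 201 and 254 CPM in normoxia, and 133 and 115 CPM in hypoxia. It rose by 4.75 in normoxia (SE 0.31, edgeR adjusted p = 0.000573) and by 3.87 in hypoxia (SE 0.31, 0.000928) and was called under all 17 alternatives in both. The phosphatases Ptpn1 and Ptpn2 were lower in normoxia, with log2 fold changes of -3.10 and -2.36. In hypoxia, Socs7 fell by 3.62, and Cish, a SOCS family member, was at 0.0673 and 0.0370 CPM against 10.4 to 12.8 CPM in the embryo. The calls of Ptpn1, Ptpn2, Socs7 and Cish were lost without any one embryonic library.

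Of the 9 tested members, 6 had reads in the embryo and were not used in the selection: Lifr, Il6st, Cntfr, Jak1, Stat3 and Socs3. Osmr and Cntf, with 0 counts in all embryonic libraries, passed the low-count filter through P12 alone and could differ in 1 direction only, so they and Ctf1 are left out of the counts here. Of the 6, 5 were called higher in normoxia (all but Jak1), where 12.1% of all tested genes were, and 0 lower, where 5.68% were. In hypoxia the same 5 were called higher, where 13.2% of all were, and 0 lower, where 12.9% were. In 6 of 6 every normoxic library was above every embryonic one, as in 27.3% of all tested genes, and in 0 below, as in 32.1% of all. In hypoxia every library was likewise above in 6 of 6 (21.3% of all) and below in 0 (36.3% of all). The median log2 fold change of the 6 was 2.94 in normoxia beside -0.04 over all tested genes, and 3.67 in hypoxia beside -0.43. Both comparisons share the embryonic libraries, and the members were picked with results known, so the counts are not independent evidence.

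Without P12 normoxia replicate 1, 3 of the 6 were called in normoxia, and without one embryonic library 1 (either replicate 1) or 2 (either replicate 2) were, against 4 in hypoxia in each of these 4 cases. Scaling moved the median of all tested genes in hypoxia against the embryo from -0.43 to -0.22 (relative log expression), -0.75 (upper quartile) and -1.32 (library totals), and in normoxia from -0.04 to -0.02, -0.24 and -0.85. The direction of each of the 9 members in both comparisons was the same under these 3 scalings. Osmr and Cntf could only rise, so theirs was fixed beforehand. With library totals the calls over all genes were 1699 higher and 2099 lower in normoxia, beside 2408 and 1133 with TMM, and 1646 higher and 3704 lower in hypoxia, beside 2630 and 2578. Summed astrocyte genes moved with the receptor chains, with 15 of 16 called higher in normoxia and 16 of 16 in hypoxia. Among the called are Aldh1l1 and Gjb6, which had 0 counts in the embryo and could only rise. The part of the astrocyte genes in the members' differences was not tested.

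**Figure D2:**
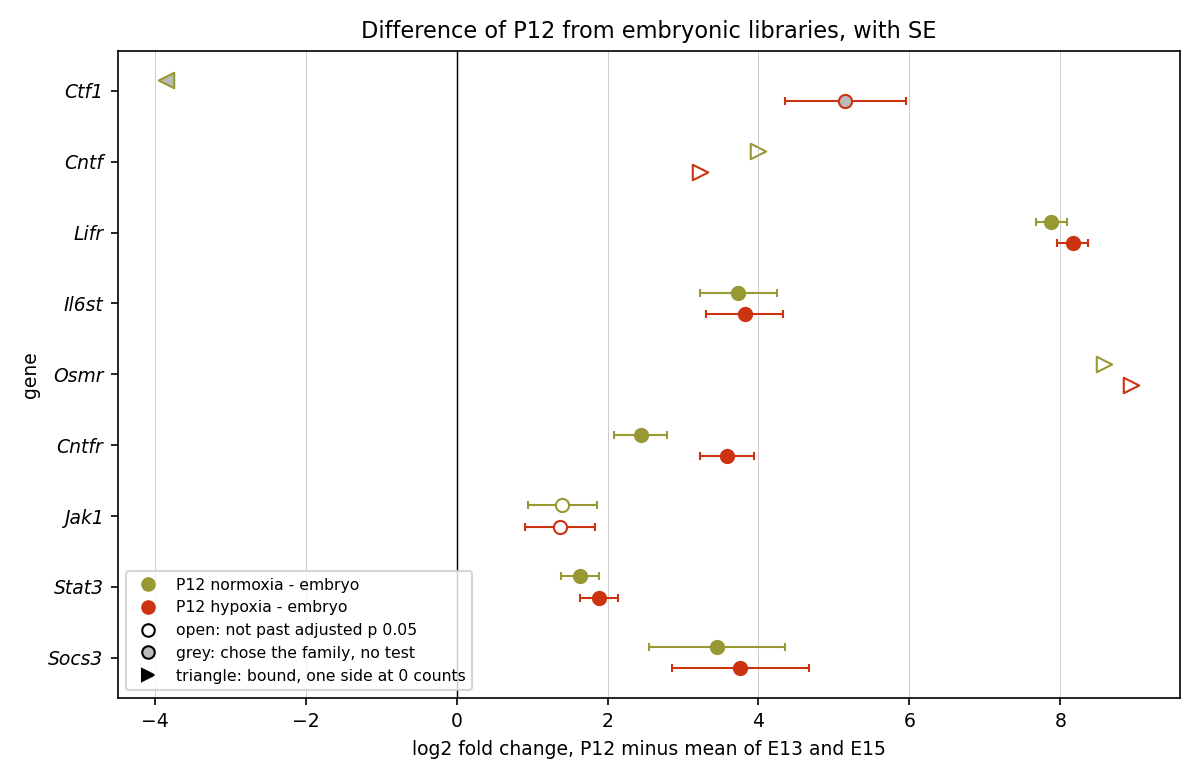
Difference of each P12 group from the mean of E13 and E15 for the 9 tested genes, as log2 fold change with its SE as a bar. Coloured filled symbols passed an adjusted p of 0.05, and grey ones are Ctf1, which chose the family and is not tested. Triangles are bounds of group means at 3 counts per library, where 1 side had 0 counts. Lifr is farthest to the right among the genes that passed, and Ctf1 lies at opposite sides of 0 in the 2 groups.

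Between the embryonic ages, E15 against E13, edgeR called 0 members higher and 0 lower, where 0.0% and 0.0% of all tested genes were called. The same test had 690 genes at an unadjusted p under 0.05, while DESeq2 called 373 genes, limma-voom 935 and edgeR on the E13 and E15 libraries alone 229. In 4 of 9 members (Ctf1, Cntfr, Stat3 and Socs3) both E15 libraries were below both E13 libraries, as in 25.8% of all tested genes, and in 2 of 9 (Il6st and Jak1) both were above, as in 23.6% of all. Cntfr had the largest difference among members present at both ages, -1.75 on the log2 scale (SE 0.43, edgeR adjusted p = 1), and was called by DESeq2 (0.0102) and limma-voom (0.0357). Stat3 differed by -0.87 (SE 0.30, edgeR adjusted p = 1) and was called by limma-voom (0.0251). The other members differed by less: -0.63 for Ctf1 (SE 0.90), 0.58 for Il6st (SE 0.60), 0.48 for Jak1 (SE 0.56), -0.17 for Lifr (SE 0.21) and -0.14 for Socs3 (SE 1.07), each with edgeR adjusted p = 1. Osmr, Cntf and Lif had 0 counts at both ages. Haemoglobin and other erythroid markers summed to 2238 and 7296 CPM at E13 and 20.1 and 85.5 CPM at E15. Progenitor markers summed to 1133 and 1082 CPM at E13 and 600.1 and 510.4 CPM at E15, where edgeR called 0 of the 12 (4 at an unadjusted p under 0.05), DESeq2 called 1 higher and 1 lower and limma-voom 1 higher and 5 lower. The part of either marker list in these differences was not tested.

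Between hypoxia and normoxia at P12, the comparison that chose the family, the selecting gene Ctf1 was called higher, beside 0.196% of all tested genes, and 2.82% of all were called lower. That call was fixed by the selection and nothing is read from it. Apart from Ctf1, the log2 differences were 1.14 for Cntfr (SE 0.42), 0.36 for Osmr (SE 2.51), 0.31 for Socs3 (SE 1.07), 0.28 for Lifr (SE 0.21), 0.24 for Stat3 (SE 0.30), 0.09 for Il6st (SE 0.60), -0.02 for Jak1 (SE 0.55) and -0.76 for Cntf (SE 2.94). Both hypoxic libraries were above both normoxic libraries for Ctf1, Lifr, Cntfr and Stat3, and the groups overlapped for Il6st, Osmr, Socs3, Jak1 and Cntf. The share of all tested genes without overlap in this comparison is not given here, so nothing is read from that split. In summed counts Cntfr was 2.23-fold and Lifr 1.21-fold of the normoxic level. Without P12 hypoxia replicate 1 the differences of Socs3, Osmr and Il6st turned to -2.64, -7.32 and -0.66. Over the same comparison, oligodendrocyte lineage markers summed to 561 and 701 CPM in normoxia and 1737 and 3339 CPM in hypoxia, and neuron markers to 1033 and 907 CPM and to 359 and 688 CPM. Of the 10 neuron markers edgeR called 4 lower in hypoxia, DESeq2 5 and limma-voom 0, with a median log2 difference of -5.77. The 4 were Stmn2, Ina, Snap25 and Syp, with differences of -8.59, -8.01, -7.52 and -9.85, while Map2, at 80.3 and 151 CPM in normoxia, stood at 178 and 310 CPM in hypoxia. Without any one embryonic library 0 genes of the whole table were called in this comparison. The part of these markers in the differences of the members was not tested.

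Genes known to respond to STAT3 were described from a list of 20, of which 15 were tested. In each P12 group 6 were called higher than the embryo and 1 lower, where 12.1% and 5.68% of all tested genes were in normoxia and 13.2% and 12.9% in hypoxia. The median log2 fold change was 4.15 in normoxia beside -0.04 over all, and 3.38 in hypoxia beside -0.43 (4.15 and 2.20 with genes at 0 set at their bounds). Of the 15, 4 were negative in normoxia and 7 in hypoxia, where DESeq2 called 4 lower. The gene called lower in both was Bcl6, which encodes a transcriptional repressor and was picked out after its values were seen. It fell by 4.50 in normoxia and fell by 4.65 in hypoxia. Of the 6 called higher, A2m had 0 counts in the embryo, so it passed the low-count filter through P12 alone and could only rise. Bcl2l1, a survival gene, stood at 102 to 126 CPM in the embryo and 2083 to 4345 CPM at P12. Junb and Fos, immediate early transcription factors, rose by 8.09 and 4.15 in normoxia and by 7.49 and 3.38 in hypoxia, and the kinase gene Pim1 rose by 6.70 and 5.98. These 4 were called under all 17 alternatives in both comparisons. Between hypoxia and normoxia edgeR called 0 of the 15, with 15 of 15 differences negative and a median of -0.70 beside 0.00 over all tested genes. At an unadjusted p under 0.05 there were 4, DESeq2 called 2 lower (A2m and Fosl2, the latter named after its values were seen) and limma-voom called 0. The libraries of hypoxia and normoxia overlapped for Junb and Bcl2l1 and did not for Fos and Pim1. The share of negative differences over all tested genes was not counted, and that of genes without overlap is not given here. Several genes of the list answer to many signals besides STAT3, so their levels do not measure its activity.

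Astrocyte genes and gliogenic regulators were taken from 2 further lists. Of 16 astrocyte genes, 15 were called higher in normoxia and 16 in hypoxia against the embryo, where 12.1% and 13.2% of all tested genes were, and edgeR called 0 between hypoxia and normoxia (0 at an unadjusted p under 0.05, 0 by DESeq2 and 0 by limma-voom). Gfap, an intermediate filament gene that STAT3 can induce, had at most 0.0179 CPM in the embryo, 1176 and 884 CPM in normoxia, and 830 and 646 CPM in hypoxia. Its embryonic maximum was 1 count, in E13 replicate 1, so Gfap passed the low-count filter through P12 alone and could hardly fall. Apoe, Slc1a2 and Gja1 rose by 9.48, 8.72 and 6.69 in normoxia and by 9.68, 8.93 and 6.95 in hypoxia. Aldh1l1 and Gjb6, also among the called, had 0 counts in the embryo. They passed the low-count filter through P12 alone and could only rise. Of 20 gliogenic regulators, 10 were called higher and 2 lower in normoxia, where 12.1% and 5.68% of all tested genes were, and 12 higher and 1 lower in hypoxia, where 13.2% and 12.9% were. Nfia, a factor that opens astrocyte genes, stood at 234 to 296 CPM in the embryo and 7018 to 10680 CPM at P12. Hes5 and Sox9 rose by 6.50 and 4.12 in normoxia and by 6.22 and 4.65 in hypoxia. Egfr, called higher, had 0 counts in the embryo and could only rise. Neurog1, called lower, had 0 counts at P12 and could only fall. Olig2, a factor of the oligodendrocyte lineage that is also in that marker list, rose by 9.83 and 11.85.

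**Figure D3:**
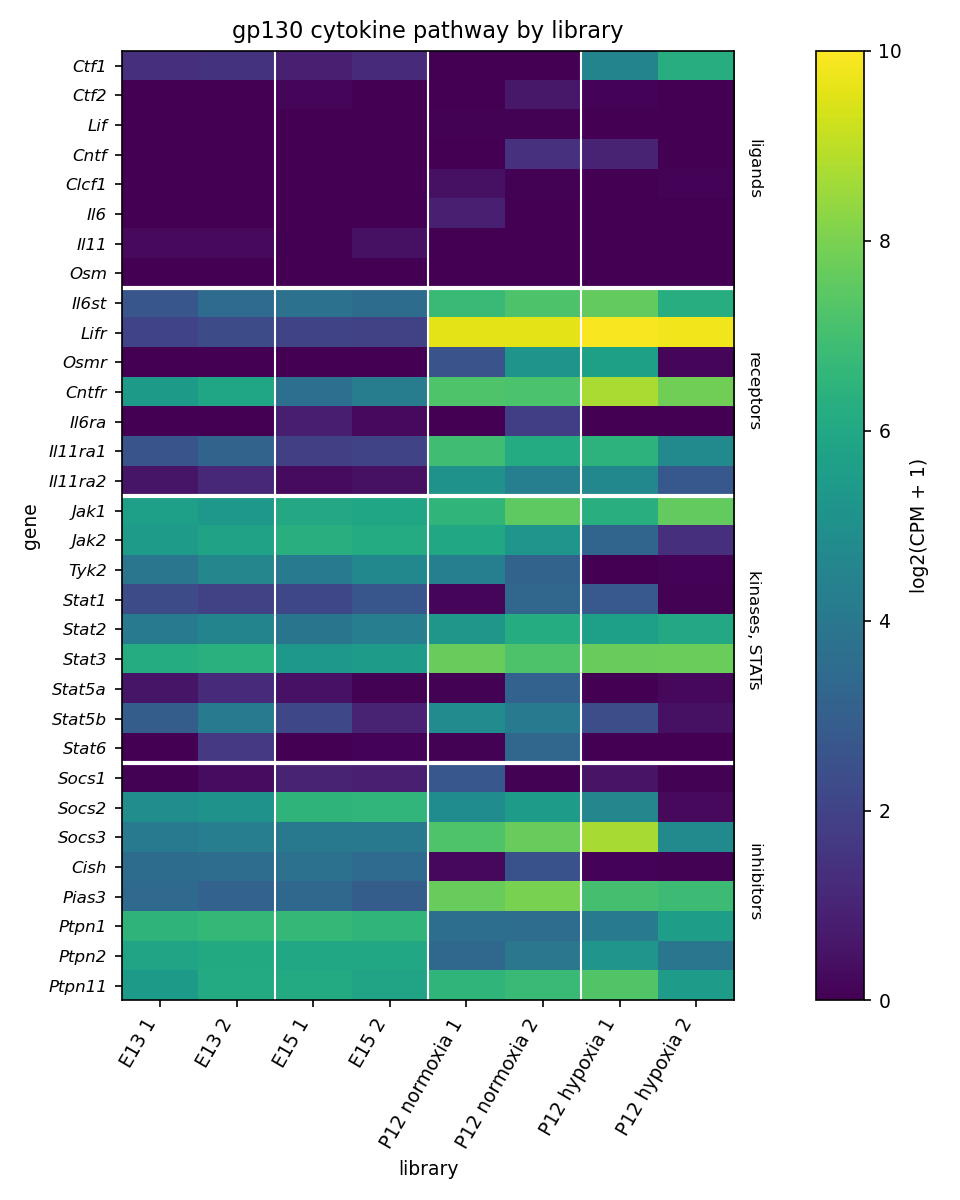
Levels of ligands, receptors, kinases with STATs, and inhibitors of the pathway in each of the 8 libraries, as log2(CPM + 1), with 0 dark and 10 bright. Among the ligands Ctf1 in the 2 hypoxic libraries is brightest, near the middle of the scale. Lifr is near the bright end in all 4 P12 libraries, and Tyk2 is dark in hypoxia.

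Levels of different members can be set side by side only per length of their exons, as CPM per kb of exon. At E13 the order ran from Cntfr (17.9 ± 3.74, SD, n = 2) through Stat3 (8.00 ± 0.55), Jak1 (6.14 ± 0.91) and Socs3 (5.91 ± 0.61) to Ctf1 (0.925 ± 0.032), Il6st (0.699 ± 0.305) and Lifr (0.319 ± 0.059). Jak1 overlapped Socs3, and Ctf1 overlapped Il6st, in their libraries. Of the 3 ligand members Ctf1 was the one detected at E13, at a level per length that overlapped that of Il6st.

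At E15 Jak1 was highest (8.54 ± 0.65 CPM per kb, SD, n = 2), and Socs3 (5.38 ± 0.0057), Cntfr (5.33 ± 1.60) and Stat3 (4.39 ± 0.45) overlapped as neighbours. Il6st (1.05 ± 0.14), Ctf1 (0.597 ± 0.202) and Lifr (0.284 ± 0.013) followed without overlap. Cntfr, in the first place at E13, was thus level with Socs3 and Stat3 at E15.

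In normoxia Lifr was highest (71.1 ± 0.33 CPM per kb, SD, n = 2), above Socs3 (61.5 ± 13.1) and Cntfr (53.0 ± 2.32), which overlapped each other. Jak1 (19.1 ± 8.74) and Stat3 (18.5 ± 4.10) overlapped, and Il6st (11.4 ± 2.39) lay below both. Osmr (1.64 ± 1.75) and Cntf (0.774 ± 1.10) were low and uneven, and Ctf1 was at 0. In both normoxic libraries gp130 was thus the lowest of the 3 chains Lifr, Cntfr and Il6st.

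In hypoxia the first 7 places were Cntfr (117 ± 48.2 CPM per kb, SD, n = 2), Lifr (86.1 ± 4.82), Socs3 (76.2 ± 95.0), Ctf1 (26.4 ± 20.4), Stat3 (21.9 ± 0.67), Jak1 (18.7 ± 11.1) and Il6st (12.1 ± 7.66). Each overlapped its neighbour in this order, so neighbours do not differ beyond the spread of the libraries. Cntfr and Lifr lay above Ctf1, Stat3, Jak1 and Il6st in both hypoxic libraries without overlap. Osmr (2.11 ± 2.97) lay below Il6st without overlap.

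**Figure D4:**
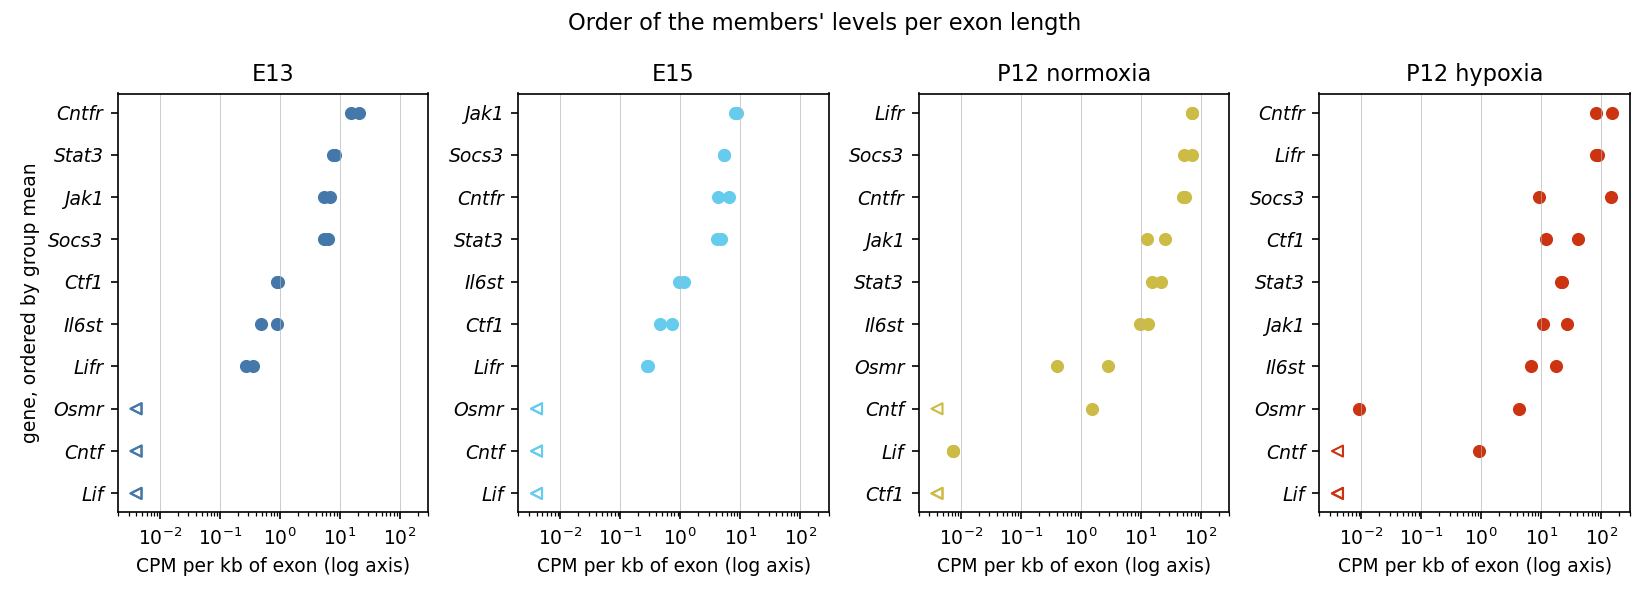
CPM per kb of exon (log axis) in each library, with the 10 genes ordered by group mean from top to bottom in each of the 4 groups. Left-pointing open triangles mark 0 counts. Lifr is the lowest detected member in both embryonic groups and the highest in normoxia, and Ctf1 moves from the bottom in normoxia to the fourth place in hypoxia.

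Members differed in how evenly replicates agreed at P12. Lifr replicates lay 1.01-fold apart in normoxia and 1.08-fold in hypoxia, and Stat3 replicates 1.37-fold and 1.04-fold. Cntfr replicates lay 1.06-fold and 1.82-fold apart, and Il6st replicates 1.35-fold and 2.62-fold. Jak1 replicates lay 1.96-fold and 2.44-fold apart, with replicate 2 the higher in both groups. Osmr and Socs3 were the least even in hypoxia, and in both replicate 1 was the higher.

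Across the 8 libraries, which share 4 groups, log2(CPM + 1) correlated with Pearson r = 0.97 between Lifr and Il6st, between Cntfr and Stat3, and between Osmr and Socs3. Ctf1 correlated with no other member above r = 0.52 (Cntfr). Of 12654 genes compared, those most like Ctf1 were Ticam1 (r = 0.993), Sirt5 (0.987), Mettl14 (0.982) and 1700007L15Rik (0.980). Ticam1 stood at 1.06 to 2.95 CPM in the embryo, 0.0953 and 0 in normoxia, and 32.7 and 68.4 in hypoxia. Mettl14, a subunit of the RNA adenosine methyltransferase, stood at 33.4 to 41.5 CPM in the embryo, 30.1 and 28.2 in normoxia, and 86.3 and 140 in hypoxia. Those most like Stat3 were Csrp1 (r = 0.992), Gtf2h3 (0.992), Gltp (0.990) and Tmem107 (0.989). These are 8 points in 4 groups, so high values come easily and are a description only.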

How the data were processed

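RNA sequencing of 8 libraries, 2 in each of 4 groups, was analysed from the deposited counts per gene, which the authors left unnormalised, 1 file per library. Reads were processed with cutadapt, STAR and Subread on GRCm38, per the submitters' processing notes; versions, annotation, strand and handling of multimapping reads are not given in the sources used here. Of 55487 entries per file, 1980 named no gene (0.205% to 0.266% of counts) and were left out, and 14 bore dates instead of symbols.

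edgeR 4.0.16 in R 4.3.3 was run with TMM scaling and filterByExpr (minimum count 10, minimum total 15), which kept 19936 genes. A single quasi-likelihood model with 1 mean per group, on 8 libraries and with 4 residual degrees of freedom, gave two-sided tests, with Benjamini-Hochberg adjustment over all tested genes and a threshold of 0.05. The embryo is the mean of E13 and E15. SE came from the F statistic, with the spread of a gene shared by all groups. Exon lengths and coordinates are from GENCODE M21, whose symbols matched 51695 of 53507 genes (96.6%). The alternatives were limma 3.58.1 (voom with sample weights), DESeq2 1.42.0, other scalings and filters, the replicate block, only the compared groups and leaving out each library; library totals without scaling factors were chosen after seeing the data. A group left with 1 library borrows the spread of the other groups, by assumption. The scripts were tested on simulated data. Summaries and figures used Python 3.11.15, pandas 2.3.3 and matplotlib 3.10.9.

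The members and all gene lists were chosen with earlier results of these data known. Some genes of these pathways are not reported here and are left out of the list counts. Named are all 10 members, per other list and comparison at most 4 called genes of smallest p, ligands and partner receptors with at least 1 CPM in any library, and the 4 genes most like Ctf1 and Stat3 with a group mean of at least 10 CPM. Some further genes, among them the ligand genes below 1 CPM, were named after their values were seen. Intervals, floors and bounds at 3 counts cover counting error only, since reads carry no molecular identifiers. Replicate numbers follow the titles. Numbers on the P12 files differ from them, and libraries of equal number did not deviate together (r of -0.044 to 0.014 over 6 pairs of groups), so no pairing entered the tests.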

Additional observations from a re-analysis of the deposited data

How the results depend on the processing

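With 2 libraries per group, counts of calls depended on the method. Members are the 9 tested. They include Ctf1, whose P12 values chose the family, and Osmr and Cntf, which could only rise from the embryo. Nothing is therefore read from the counts of members. Counts without these genes, beside the shares of all tested genes, are given above. In E15 against E13 (0 genes, 0 members) DESeq2 called 373 genes and 1 member, limma-voom 935 and 2, and edgeR on the compared groups alone 229. In normoxia against the embryo (3541 genes, 6 members) DESeq2 called 7252 genes, the compared groups alone 6731 and the replicate block 1705. Leaving out 1 library gave 928 to 5990 genes and 1 to 8 members. In hypoxia against the embryo (5208 genes) DESeq2 called 9001, limma-voom 2390 and the replicate block 2868, and leaving out 1 library gave 1562 to 6836. Members called there numbered 4 to 8 over all 17 alternatives, beside 6. In hypoxia against normoxia (602 genes) DESeq2 called 3981 genes, no low-count filter 295 and the replicate block 1. There limma-voom and the compared groups alone called 0. Members are not counted in this comparison, since it chose the family. Leaving out 1 library gave 0 to 3018 genes, with 0 genes without any one embryonic library. The cause of these shifts was not tested. Against the embryo 0 of the 9 members turned direction at P12, and Osmr and Cntf could not. In E15 against E13 Lifr turned, which ranged from -0.339 to 0.03 with 1 library left out and was above 0 without E13 replicate 2. In hypoxia against normoxia, given with no test, Il6st (-0.657 to 0.649), Osmr (-7.32 to 2.38), Socs3 (-2.64 to 1.25), Jak1 (-0.761 to 0.598) and Cntf (-8.14 to 7.48) took both signs. The replicate block ended the calls of Socs3 given above, and libraries of equal number did not deviate together. Lif and Cntf were near or at 0 in most libraries, and Osmr was at 0 in the embryo. The part of depth in these values was not tested.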

Other observations

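Serpina3n, an acute phase gene of the STAT3 response list that was picked out after its values were seen, had 0 counts in the embryo, 0.0953 and 23.3 CPM in normoxia, and 22.2 and 0.148 CPM in hypoxia. Its higher library in each P12 group was the one with the higher Osmr and the one with Cntf reads, P12 normoxia replicate 2 and P12 hypoxia replicate 1. A2m did not follow that split. This gene, which encodes the plasma protease inhibitor alpha-2-macroglobulin, had 0 counts in the embryo, 26.0 and 12.5 CPM in normoxia, and 0.0336 and 0.444 CPM in hypoxia. Lcn2, another acute phase gene, had 0 counts in all 8 libraries, and Cd44 was at most 0.222 CPM. Rgs5, a gene of the mural list, stood at 1021 to 2501 CPM at P12 and had 0 counts in the embryo. It was called higher in both P12 groups, but it passed the low-count filter through P12 alone and could only rise. Of the same list, Col1a1 was also called higher in both P12 groups by edgeR but not by limma-voom, at 1.61 to 10.98 CPM beside 0 to 4.33 CPM in the embryo. Col1a2 stood at 41.3 to 121 CPM and Pdgfrb at 21.9 to 72.0 CPM in 3 of 4 P12 libraries, and at 0.222 and 0.629 CPM in P12 hypoxia replicate 2. Kcnj8 and Abcc9 had 0 counts in all 4 P12 libraries.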
